A study of Mus musculus with 28 samples.

Results

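Type I interferon response genes are transcribed when a cell receives type I interferon, and their products restrict viruses, sense foreign nucleic acid or feed back on the signal. They were examined here in regulatory T cells (Tregs) sorted by surface OX40 from mouse melanomas and spleens. The members were 53 genes given by symbol, taken as a list of symbols. Of the 13103 genes in the table, 49 carried one of these symbols, and Ddx58, Ifit3b, Isg15 and Mx1 are not analysed here. All 49 were among the 12548 genes tested, and each reached the minimum level of the test, 0.382 CPM (counts scaled so that every sample has the same total), in all 14 samples.

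Type I interferons bind a receptor made of IFNAR1 and IFNAR2, whose kinases JAK1 and TYK2 phosphorylate STAT proteins, STAT2 among them. These join IRF9, and the complex binds the interferon-stimulated response element (ISRE) in the promoters of its targets, IRF7 among them, which in turn drives more interferon transcription. Interferon gamma has a receptor of its own and acts through gamma-activated sites (GAS), and many targets respond to both kinds of interferon. In T cells the type I pathway also acts on proliferation and survival.

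All mice were Foxp3-GFP animals, in which green fluorescent protein marks cells that express Foxp3, the transcription factor of Tregs, and all carried B16 melanoma cells implanted in the skin 7 to 10 days earlier. CD45, CD3, CD4 and GFP marked the Tregs, and cells with high or low OX40, a costimulatory receptor encoded by Tnfrsf4, were sorted from tumor and spleen. The groups are tumor OX40plus and tumor OX40minus (4 mice each) and spleen OX40plus and spleen OX40minus (3 mice each). The spleens, too, are those of tumor-bearing mice.

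Each sample is the mean of 2 libraries of the same mouse and gate, whose differences were close to counting noise, so each pair is 1 sample. The counts of a sample summed to 22441818 to 29647993, and 3 counts made 0.104 to 0.13 CPM. Within each tissue Tnfrsf4 followed the gates in every mouse, but all tumor OX40minus samples lay above all spleen OX40plus samples. Tnfrsf4 was at 218 to 298 CPM in spleen OX40minus and 588 to 809.5 in spleen OX40plus. In tumor it was at 1816 to 2159 in OX40minus and 3166 to 3583 in OX40plus samples. Foxp3 was found in all 14 samples, at 23.3 to 41, 31.8 to 129.6, 34.3 to 49.7 and 52.9 to 62 CPM in the same order. The highest of these values is that of mouse 3 in spleen OX40plus, which stood apart from the other spleen OX40plus samples (32.1 and 31.8 CPM). In sorted cells measured in bulk, fewer cells of a type and less RNA per cell cannot be told apart.

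The letters of the ISRE were searched in the promoters of the members, from 250 bases before to 50 bases after each gene's start, in RefSeq sequence of the build GRCm38.p6. The motif was GAAA, any 2 bases and GAAA again, or on the other strand TTTC, any 2 bases and TTTC, and matches may overlap each other. Of the 49 members, 37 had at least 1 window and 19 of these (51.4%) held a match, while 3.99% of the 27025 genes with a window held one. The GAS motif TTCNNNGAA, which reads the same on both strands, was found in 8 of the 37 (21.6%) and in 9.55% of all genes, and in 1 window it overlapped an ISRE match. The 250 bases before the start are given for 6 genes, 5′ to 3′ along the gene, with the letters of ISRE matches in capitals, because these genes span the range of the results. Ifit1 and Ifit3 hold the same pair of matches, Oas1a and Bst2 hold overlapping matches and Ifi213 holds 1. Isg20, the member whose levels ran opposite to most others, holds none in any of its windows. Of the 18 members with windows and no match, 16 were lower in tumor OX40plus than in tumor OX40minus Tregs, and none of those 16 is shown.
Ifit1: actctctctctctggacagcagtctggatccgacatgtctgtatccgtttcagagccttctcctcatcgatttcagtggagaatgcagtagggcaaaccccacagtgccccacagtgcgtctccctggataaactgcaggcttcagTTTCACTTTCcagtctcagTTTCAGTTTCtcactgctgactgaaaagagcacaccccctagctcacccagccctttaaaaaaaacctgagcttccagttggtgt
Ifit3: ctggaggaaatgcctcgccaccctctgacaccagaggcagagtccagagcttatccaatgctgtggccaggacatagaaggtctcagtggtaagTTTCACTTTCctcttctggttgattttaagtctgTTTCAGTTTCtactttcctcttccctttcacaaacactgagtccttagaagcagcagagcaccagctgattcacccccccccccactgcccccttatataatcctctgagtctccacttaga
Oas1a: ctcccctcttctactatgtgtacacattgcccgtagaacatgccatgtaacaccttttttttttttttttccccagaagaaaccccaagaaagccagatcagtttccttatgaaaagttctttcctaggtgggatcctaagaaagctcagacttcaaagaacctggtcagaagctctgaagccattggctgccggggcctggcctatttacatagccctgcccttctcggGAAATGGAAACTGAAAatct
Ifi213: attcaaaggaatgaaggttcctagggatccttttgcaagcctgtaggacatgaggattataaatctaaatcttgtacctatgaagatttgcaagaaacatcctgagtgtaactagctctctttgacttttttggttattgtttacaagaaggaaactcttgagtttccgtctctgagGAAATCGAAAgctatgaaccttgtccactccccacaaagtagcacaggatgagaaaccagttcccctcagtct
Bst2: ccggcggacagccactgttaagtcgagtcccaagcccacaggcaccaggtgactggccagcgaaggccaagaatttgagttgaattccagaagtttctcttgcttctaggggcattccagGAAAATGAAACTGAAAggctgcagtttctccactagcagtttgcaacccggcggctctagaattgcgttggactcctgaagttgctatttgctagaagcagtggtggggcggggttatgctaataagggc
Isg20: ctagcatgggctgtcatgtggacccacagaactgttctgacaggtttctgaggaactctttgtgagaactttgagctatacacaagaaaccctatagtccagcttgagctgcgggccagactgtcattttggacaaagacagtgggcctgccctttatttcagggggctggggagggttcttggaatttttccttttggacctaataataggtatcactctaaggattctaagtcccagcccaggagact

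They lie at chr19:34640639-34640888, plus strand for Ifit1, chr19:34583279-34583528, plus strand for Ifit3 and chr5:120907526-120907775, minus strand for Oas1a. The others lie at chr1:173599273-173599522, minus strand for Ifi213, chr8:71537473-71537722, minus strand for Bst2 and chr7:78913174-78913423, plus strand for Isg20. A match is a stretch of letters and not a measured binding site.

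Tumor OX40plus Tregs carried the lowest levels of the module. The mean log2 CPM of the 49 members was 5.99 to 6.14 in tumor OX40plus samples, 6.83 to 7.18 in tumor OX40minus, 6.97 to 7.16 in spleen OX40plus and 7.12 to 7.44 in spleen OX40minus samples. The 4 tumor OX40plus samples thus lay below all 10 others, and the other groups overlapped. Gene by gene, 39 members had their lowest group mean in tumor OX40plus, 7 in spleen OX40plus and 3 in spleen OX40minus. The highest mean was in spleen OX40minus for 28 members, in tumor OX40minus for 15, in spleen OX40plus for 5 and in tumor OX40plus for 1, Isg20.

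**Figure D1:**
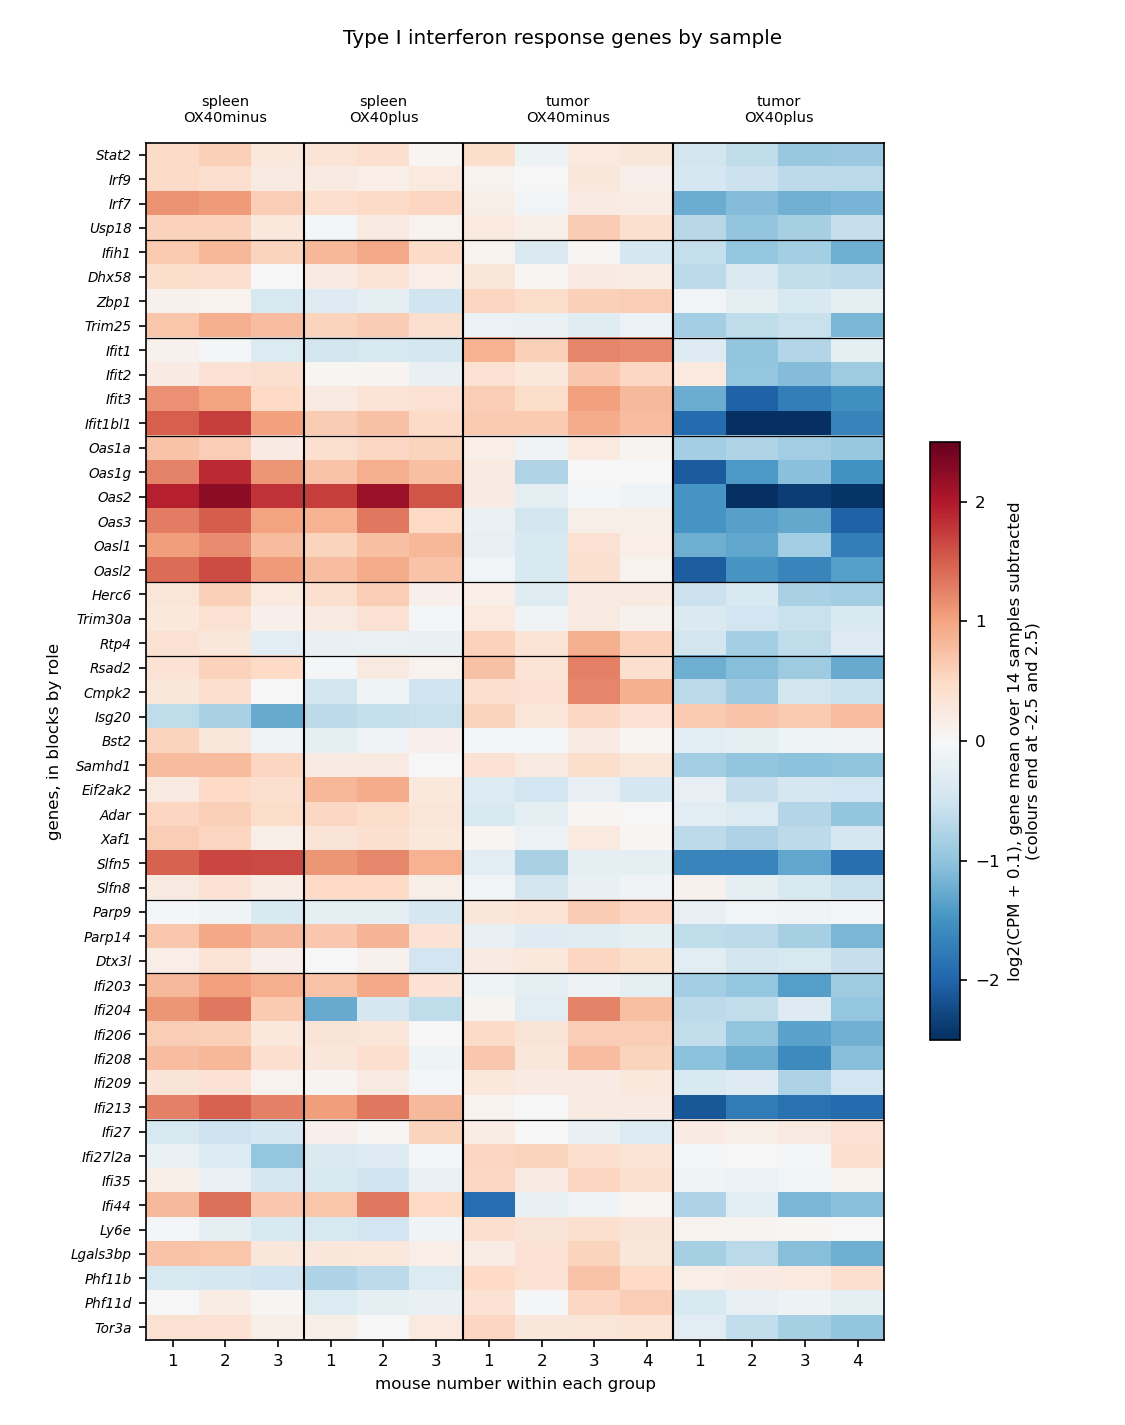
Each row is 1 of the 49 members and each column 1 of the 14 samples; colour is log2(CPM + 0.1) with the gene's mean over the samples subtracted, and horizontal lines divide the genes by role. The 4 tumor OX40plus columns are blue, below the gene's mean, for most rows, and Isg20, Ifi27 and Phf11b are among the rows that depart from this.

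Within tumors, 42 of the 49 members fell and 1 rose in OX40plus against OX40minus Tregs. Every adjusted p given is from limma's moderated test in a fit over all genes, and a gene that passes 0.05 is said to have risen or fallen. Over all genes tested in this comparison 38.4% passed, 19.9% lower and 18.5% higher. The median log2 fold change was -0.85 over the members and -0.08 over all genes. For 41 members all 4 tumor OX40plus samples lay below all 4 tumor OX40minus samples, where 16.3% of all genes did so. OX40plus was lower in 4 of 4 mice for 42 members, against 24.5% of all genes. A fall of at least 1 on the log2 scale was seen for 22 members, and the share of all genes with such a fall was not counted.

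**Figure D2:**
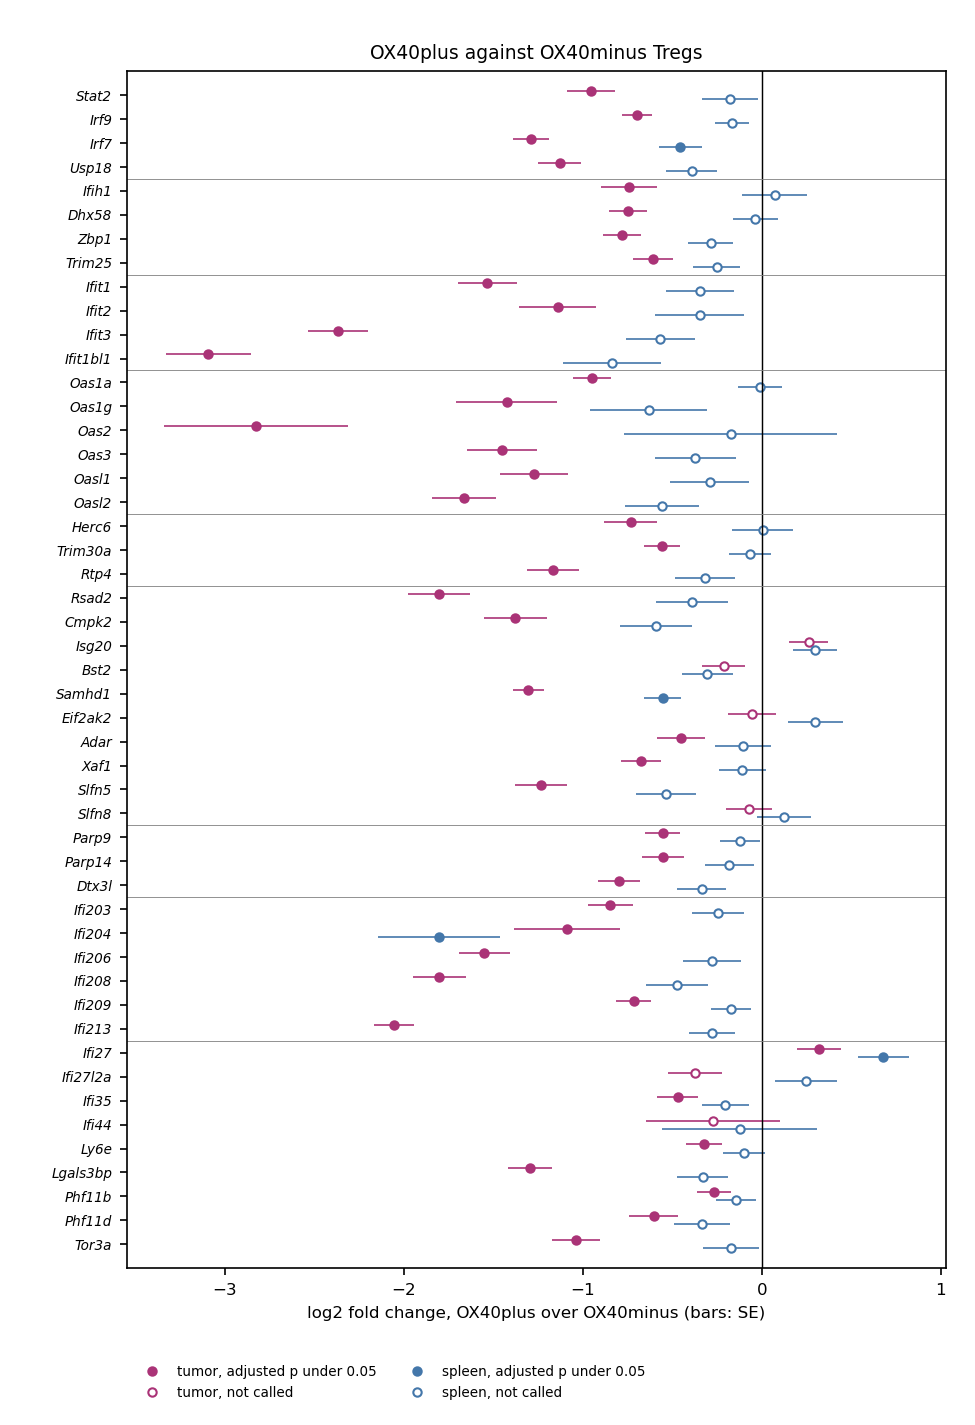
Log2 fold change of OX40plus over OX40minus Tregs for each member, in tumors and in spleens, with bars of 1 SE; filled points have an adjusted p under 0.05. Tumor estimates lie left of 0 for 47 members and spleen estimates for 42, and the tumor points reach further left for most genes. Of the 12548 genes tested, 6905 had estimates below 0 in tumors and 5996 in spleens.

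Macrophage or monocyte genes moved with the OX40 gates. Of 10 tested, 10 fell in tumor OX40plus (median -2.81) and 10 fell in spleen OX40plus (median -3.37). The summed level of the 11 genes in the table was 241 to 364 CPM in tumor OX40minus and 55.3 to 69.7 CPM in tumor OX40plus, and 796 to 1002 CPM in spleen OX40minus and 86.8 to 205 CPM in spleen OX40plus, where mouse 3 gave the 205. The median of the 49 members was -0.85 in tumors and -0.25 in spleens. Spleen OX40minus samples had the highest macrophage sums, and all OX40plus samples lay below all OX40minus samples. C1qb, a complement gene of macrophages, was at 38, 32.7, 26.3 and 52 CPM against 3.15, 8.74, 6.74 and 5.98 CPM in tumors, and none of the 11 was at 0 throughout a group. The part of these genes in the members' differences was not tested.

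**Figure D3:**
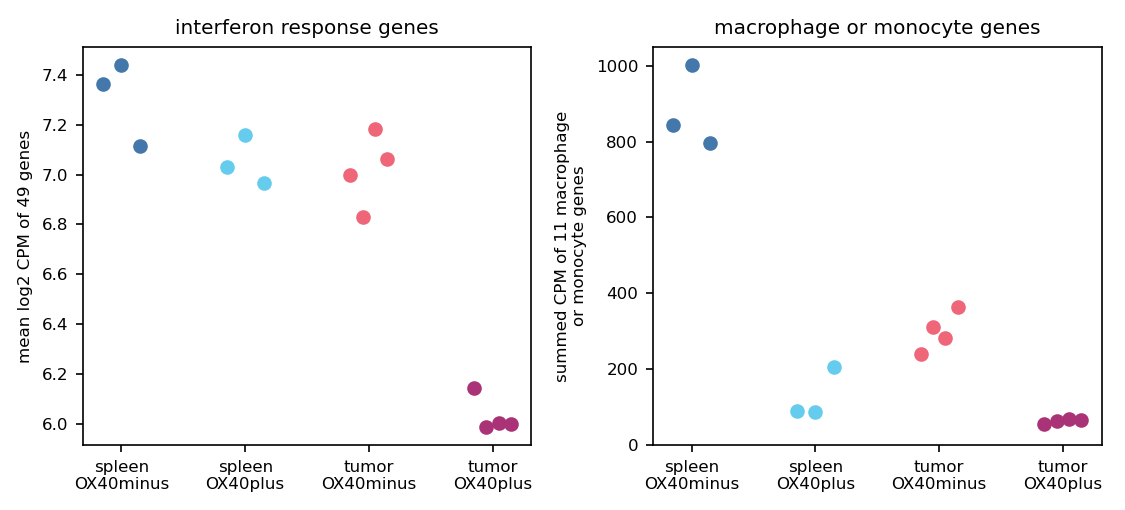
Left, mean log2 CPM of the 49 members in each sample; right, summed CPM of 11 macrophage or monocyte genes in the same samples. Tumor OX40plus samples are at 5.99 to 6.14 on the left, the lowest level, and at 55.3 to 69.7 CPM on the right. Spleen OX40plus samples are at 6.97 to 7.16 on the left and at 86.8 to 205 CPM on the right. The relation between the panels was not tested.

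The signalling genes fell, 4 of 4, with a median of -1.04. Irf7 (chromosome 7, 141262706 to 141266481 on mm10, as are all positions of genes here), the factor that amplifies interferon production, was at 342, 293, 358 and 350.1 CPM in the tumor OX40minus samples and at 130.1, 145, 134 and 139 CPM in tumor OX40plus (log2 fold change -1.29 ± 0.10 SE, adjusted p = 2.25e-07). The ranges were far apart. Stat2, a subunit of the ISRE-binding complex (chromosome 10, 128270559 to 128292849), was at 245, 166, 213 and 219.9 CPM against 132, 116, 93.7 and 94.3 CPM (-0.95 ± 0.14, adjusted p = 5.14e-05). Irf9, its DNA-binding subunit (chromosome 14, 55603571 to 55610030), was at 266, 254, 305 and 275 against 188, 174, 159 and 158 CPM (-0.70 ± 0.08, adjusted p = 1.03e-05). Usp18, which strips ISG15 from proteins and blocks the receptor as negative feedback (chromosome 6, 121245906 to 121270917), was at 114, 107, 149.9 and 128 against 59.9, 48.5, 54.3 and 64.5 CPM (-1.13 ± 0.12, adjusted p = 3.94e-06). Both the subunits that carry the signal and the feedback enzyme were thus lower in every tumor OX40plus sample than in any tumor OX40minus sample.

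The cytosolic sensors, counted together with Trim25, also fell, 4 of 4, with a median of -0.74. Ifih1, which encodes the sensor of long double-stranded RNA MDA5, was at 50.6, 36.8, 48.6 and 34.7 CPM in tumor OX40minus and 31.3, 24.2, 26.2 and 20.3 CPM in tumor OX40plus (-0.74, adjusted p = 0.00148). Dhx58, the RNA helicase LGP2, changed by -0.75, Zbp1, a sensor of Z-form nucleic acid that can trigger necroptosis, by -0.78 and Trim25, a ubiquitin ligase of the RIG-I pathway, by -0.61. Zbp1 was at 589, 553, 607 and 616 CPM against 387, 339, 308 and 346 CPM, with no overlap.

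The IFIT and OAS families held the largest falls by their medians, -1.95 and -1.44. IFIT proteins bind viral RNA that lacks the cap methylation of the host. Ifit3 (chromosome 19, 34583531 to 34588731) was at 187, 167, 249.5 and 215 CPM in tumor OX40minus samples and at 51.6, 29.9, 36.6 and 41.8 CPM in tumor OX40plus samples, 5.16 times lower (log2 fold change -2.37 ± 0.17 SE, adjusted p = 7.27e-08). Ifit1bl1, a gene of the same family with the lowest fold change of all members (chromosome 19, 34592891 to 34601956), was at 48.1, 47.8, 58.1 and 52.3 CPM against 7.98, 4.69, 4.15 and 9.48 CPM, 8.53 times lower (-3.09 ± 0.24, adjusted p = 1.64e-07). Ifit1 (chromosome 19, 34640871 to 34650009) was at 197, 164, 249 and 243 CPM against 86.1, 54, 64.7 and 91.8 CPM (-1.53 ± 0.17, adjusted p = 3.94e-06). Ifit1 and Ifit3, whose promoters hold the same 2 ISRE matches, both fell. Of the 31-base stretches of Ifit3, 61.8% occur in other genes, Ifit3b first, so its reads may be shared. Ifit2 fell as well (-1.14, adjusted p = 0.000626), with 1 tumor OX40plus sample far from the rest (76.1, 32.7, 30.1 and 34.5 CPM against 83.5, 77, 102 and 92.7 CPM).

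OAS enzymes make short 2′-5′ linked oligoadenylates that activate RNase L, and the OASL proteins are relatives, of which Oasl1 is known in mouse to hold back Irf7 translation. All 6 fell. Oas2 (chromosome 5, 120730333 to 120749853) was at 31.5, 23, 26.9 and 25.1 CPM in tumor OX40minus and at 9.77, 0.738, 5.27 and 4.89 CPM in tumor OX40plus (log2 fold change -2.83 ± 0.51 SE, adjusted p = 0.000453). Mouse 2 was far below the other 3 tumor OX40plus samples, and leaving it out gave -2.06 (adjusted p = 7.47e-06). No tumor OX40plus sample came near the tumor OX40minus ones. Oas3 was at 62.2, 51.2, 78 and 77.4 against 25.1, 27.4, 29 and 17.2 CPM (-1.45, adjusted p = 3.14e-05). Oasl2 was at 34.5, 27.7, 47.9 and 38.5 against 8.53, 13, 11.4 and 13.8 CPM (-1.66, adjusted p = 3.94e-06). Oasl1 (-1.27), Oas1g (-1.43) and Oas1a (-0.95) completed the family. Oas1a and Oas1g share 68.8% and 55.1% of their 31-base stretches with other genes, so how reads were divided between them is uncertain.

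The Ifi200 family, whose genes lie together on chromosome 1 and whose proteins carry a DNA-binding HIN domain, a pyrin domain or both, fell 6 of 6. Ifi213 (chromosome 1, 173566283 to 173599274) had the smallest adjusted p of all members: it was at 142, 134, 156 and 156 CPM in tumor OX40minus and at 30.6, 39.5, 36.6 and 34.9 CPM in tumor OX40plus, 4.16 times lower (log2 fold change -2.06 ± 0.11 SE, adjusted p = 5.34e-09). Ifi208 was at 193, 149, 208 and 179 against 59.4, 52.4, 40.3 and 57.9 CPM (-1.80, adjusted p = 3.28e-07) and Ifi206 at 333, 296, 366 and 367 against 156, 119, 94 and 103 CPM (-1.55, adjusted p = 8.6e-07). Ifi203 (-0.85), Ifi209 (-0.72) and Ifi204 (-1.09) fell by less. Between 21.6% and 47.2% of the 31-base stretches of these 6 genes occur in other genes, so how reads were divided among them is uncertain. The sum of the 6 was 1292 to 1480 CPM in tumor OX40minus and 527 to 721 CPM in tumor OX40plus samples.

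Among the other antiviral effectors 6 of 10 fell. Samhd1, which destroys the nucleotides that viruses need for DNA synthesis (chromosome 2, 157097533 to 157135265), was at 1832, 1674, 1952 and 1778 CPM in tumor OX40minus and 786, 724, 701 and 715 CPM in tumor OX40plus (log2 fold change -1.31 ± 0.09 SE, adjusted p = 4.23e-08). Rsad2, or viperin, which makes a chain-terminating nucleotide (chromosome 12, 26442746 to 26456452), was at 45.6, 35.1, 65.6 and 36.7 against 11.7, 13, 14.8 and 11.5 CPM (-1.80 ± 0.17, adjusted p = 1.32e-06). Its neighbour Cmpk2, a mitochondrial nucleotide kinase, was at 66.6, 65.2, 117 and 92.9 against 31.4, 26.6, 36.5 and 34 CPM (-1.38, adjusted p = 1.81e-05). Slfn5 (-1.24), Xaf1 (-0.67), a binding partner of the apoptosis inhibitor XIAP, and Adar (-0.45), which edits adenosine in double-stranded RNA, also fell. Adar had overlapping groups and lost its call without mouse 3 or mouse 4 of tumor OX40minus (highest adjusted p = 0.0519).

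The other 4 effectors did not pass. Eif2ak2, which encodes the RNA-activated kinase PKR (chromosome 17, 78852564 to 78882573), was at 53.2, 48.1, 58.5 and 50.1 CPM in tumor OX40minus and 58.8, 45, 50.3 and 48.2 CPM in tumor OX40plus (-0.06 ± 0.13, adjusted p = 0.776). Slfn8 was at 129.9 to 169.8 against 121 to 191 CPM (adjusted p = 0.707), and both genes had overlapping groups. Bst2, or tetherin, which holds budding virus at the membrane (chromosome 8, 71534255 to 71537456), was at 141, 140.3, 169 and 150.2 against 119.8, 125, 135 and 137 CPM (-0.21 ± 0.12, adjusted p = 0.181). Its groups did not overlap, by a margin of a few CPM, and its promoter holds 2 overlapping ISRE matches like that of Oas1a. Isg20, an exonuclease that degrades RNA (chromosome 7, 78913424 to 78920396), was at 289, 244, 283 and 252 CPM in tumor OX40minus and 311, 322, 309.6 and 334 CPM in tumor OX40plus, all 4 above all 4 (0.26 ± 0.11, adjusted p = 0.069). It was the only member wholly higher in tumor OX40plus, where 16.6% of all genes were, and it passed under 4 of 21 alternative settings.

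**Figure D4:**
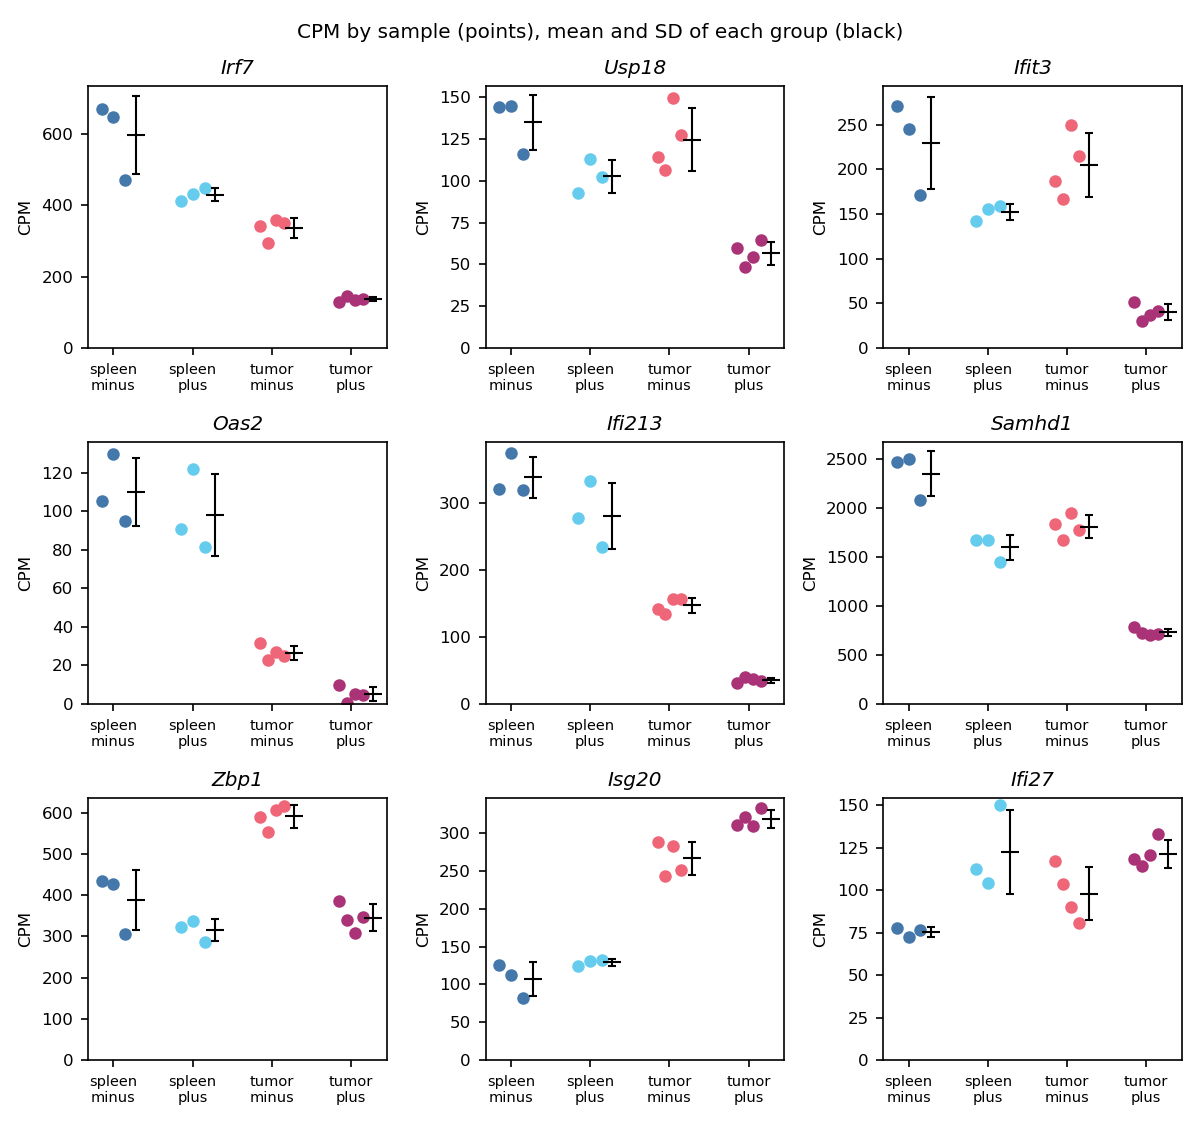
CPM in each of the 14 samples for 9 members, each point 1 sample, with the mean and SD of the group in black; the vertical axes start at 0. Irf7, Usp18, Ifit3, Oas2, Ifi213 and Samhd1 have all 4 tumor OX40plus points below every other point, whereas Isg20 has them at the top and Zbp1 is highest in tumor OX40minus.

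Herc6, the ligase that attaches ISG15 in mouse, fell (-0.73, adjusted p = 0.00104), as did Trim30a (-0.56), a regulator of innate signalling in mouse, and Rtp4 (-1.16), a chaperone of cell surface receptors. Parp9 and Dtx3l, partners in an ADP-ribosylating ubiquitin ligase, and Parp14 fell, 3 of 3. Dtx3l was at 299, 307, 372 and 345 CPM against 209, 187, 193 and 170.4 CPM (-0.80, adjusted p = 6.52e-05), and Parp9 and Parp14 both changed by -0.55. Of the remaining 9 members 6 fell and 1 rose. Lgals3bp, a secreted binding partner of galectin-3, was at 249, 283, 324 and 267 against 123, 137, 105 and 94.1 CPM (-1.30, adjusted p = 1.23e-06), and Tor3a, a torsin ATPase, changed by -1.04. Phf11d (-0.60), Ifi35 (-0.47), Ly6e (-0.32) and Phf11b (-0.27) fell less, and 62.9% of the 31-base stretches of Phf11b occur in other genes. Blocking on the mouse took Ly6e (adjusted p = 0.0581) and Phf11b (adjusted p = 0.0672) out of the calls, and over the 21 alternatives Phf11b was lost under 9 (highest adjusted p = 0.129) and Ly6e under 2.

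Ifi27 was the member that rose, and narrowly. This gene of a mitochondrial and nuclear envelope protein (chromosome 12, 103434211 to 103440239) was at 117, 104, 90.2 and 81 CPM in tumor OX40minus and 118, 114, 121 and 133 CPM in tumor OX40plus (log2 fold change 0.32 ± 0.12 SE, adjusted p = 0.049). The groups overlapped, OX40plus was higher in 4 of 4 mice, and the call was lost under 15 of 21 alternatives, the block among them (adjusted p = 0.0716). Its neighbour Ifi27l2a was at 1543, 1569.6, 1426 and 1359 against 1042, 1077, 1044 and 1423 CPM and did not pass (-0.37 ± 0.15, adjusted p = 0.0591), though it did under 6 of 21 alternatives, among them the fit without mouse 4 of tumor OX40plus (lowest adjusted p = 0.0156). Ifi44 was at 2.56, 8.57, 9.25 and 10.0 against 5.69, 8.13, 4.36 and 4.71 CPM (adjusted p = 0.601).

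Members with an ISRE match in a window fell about as often as those without. Of the 19 with a match 16 fell, with a median log2 fold change of -1.24, of the 18 without 16 fell, with a median of -0.72, and of the 12 with no window 10 fell, with a median of -0.76. Irf7 and Samhd1 are among those with windows and no match. No match says only that these letters are not in this window.

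In spleens the same comparison gave smaller differences, and few passed. Of the 49 members 3 fell and 1 rose, where 7.89% of all genes passed, 3.55% lower and 4.34% higher. Estimates were below 0 for 42 members and for 5996 of the 12548 genes tested, and the median was -0.25 against 0.01 over all genes. At an unadjusted p under 0.05 in limma 16 members were lower, and the share of all genes at that bar was not counted. All spleen OX40plus samples lay below all spleen OX40minus samples for 17 members, against 14.3% of all genes, and OX40plus was lower in 3 of 3 mice for 30 members, against 19.6%. The macrophage or monocyte sum was 796 to 1002 CPM in spleen OX40minus and 86.8 to 205 CPM in spleen OX40plus, and its part in these differences was not tested.

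Samhd1 fell in spleen, from 2467, 2495 and 2083 CPM in OX40minus to 1671, 1670.4 and 1449.6 CPM in OX40plus (log2 fold change -0.55 ± 0.10 SE, adjusted p = 0.00216). Irf7 was at 670.2, 647 and 471 CPM against 411, 430.0 and 449 CPM (-0.45 ± 0.12, adjusted p = 0.0244). Its groups did not overlap, but the call was lost under 6 of 21 alternatives, among them the fit blocked on the mouse (adjusted p = 0.0716) and those without mouse 1 or mouse 2 of either spleen group. Ifi204 (chromosome 1, 173747293 to 173766943), a mouse DNA sensor related to human IFI16, was at 30.0, 35 and 22 CPM against 5.74, 10.4 and 8.95 CPM (-1.80 ± 0.34, adjusted p = 0.00296). It fell further in spleen than in tumor, alone among the members that passed in tumor, though the difference between the tissues did not pass (0.71 ± 0.45, adjusted p = 0.348). Ifi27 rose, from 77.9, 72.3 and 76.7 to 113, 104 and 150.5 CPM (0.68 ± 0.14, adjusted p = 0.00604).

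All 4 IFIT genes had spleen OX40plus samples wholly below spleen OX40minus samples without passing. Ifit1bl1 was at 86.5, 102 and 62.3 against 47.3, 51 and 42.3 CPM (-0.84 ± 0.28, adjusted p = 0.0817) and Ifit3 at 271, 245 and 171 against 142, 155 and 159 CPM (-0.57 ± 0.19, adjusted p = 0.0982). Mouse 3 of spleen OX40minus had the lowest value of its group for both. Without it 6 members fell in spleen in place of 3, with Ifit3, Zbp1 and Bst2 among those gained. With the spleen groups fitted alone 7 members fell, and with limma-voom 6. Of all 12548 genes tested, 446 fell in the main fit and 339 without mouse 3 of spleen OX40minus. With the spleen groups alone 878 of all genes fell, and with limma-voom 510. Cmpk2 was at 61.1, 66.4 and 50.4 against 36.2, 46.6 and 35.4 CPM; blocked on the mouse it passed (adjusted p = 0.0253) and not without it (adjusted p = 0.0964).

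The OX40 difference was itself different between the tissues for 25 members. The interaction, the tumor difference minus the spleen difference, was below 0 for 47 of the 49 members and passed for 25, all of them among those that fell in tumor. Over all genes the estimate was below 0 for 6835 of 12548, and 10.8% passed, 6.33% lower and 4.49% higher. No member was higher by limma or limma-voom, nor at an unadjusted p under 0.05. The median was -0.71, against -0.06 over all genes. Oas2 (-2.65 ± 0.79, adjusted p = 0.0408), Ifit1bl1 (-2.26 ± 0.36, adjusted p = 0.00122), Ifit3 (-1.80 ± 0.26, adjusted p = 0.000499) and Ifi213 (-1.78 ± 0.17, adjusted p = 1.32e-05) had the lowest estimates among those that passed. Oas2 stood at -1.89 without mouse 2 of tumor OX40plus (adjusted p = 0.00216), above Ifit1bl1, and its interaction was lost under 10 of 20 alternatives (highest adjusted p = 0.0944).

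By role, the interaction passed for 4 of 4 signalling genes, 3 of 4 IFIT genes, 5 of 6 OAS genes and 4 of 6 Ifi200 genes. It passed for 2 of the 4 genes grouped as sensors, Trim25 among the 4, and 3 of 10 other effectors (Rsad2, Samhd1 and Xaf1). Under every one of the 20 alternatives it passed for 14 members: Irf7, Ifit1, Ifit3, Ifit1bl1, Oas1a, Oasl2, Ifi206, Ifi208, Ifi213, Dhx58, Rsad2, Samhd1, Lgals3bp and Tor3a. Xaf1 and Herc6 were lost under 12 alternatives, Oasl1 under 11, Ifih1 under 10, Oas3 under 6, Stat2 and Ifi209 under 5. It passed for none of Parp9, Parp14 and Dtx3l, whose estimates were -0.43, -0.37 and -0.46. The count changed when single samples were left out. It was 15 without mouse 3 of spleen OX40minus, and 16, 16 and 29 without mouse 1, 2 and 3 of spleen OX40plus. Without mouse 1, mouse 3 or mouse 4 of tumor OX40minus it was 19 each time. Over all genes 794 were lower in the main fit, and 590, 474, 630 and 725 without those spleen samples, in the same order. With the mouse as a block 24 passed, with Irf9 (adjusted p = 0.054), Oasl1 (0.0531) and Herc6 (0.0811) lost and Trim30a (0.0487) and Cmpk2 (0.0281) gained.

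Between tissues, OX40plus Tregs of the tumor carried less of most members than OX40plus Tregs of the spleen. Of the 49 members 36 fell and 4 rose, where 64.5% of all genes passed, 34.3% lower and 30.2% higher, with a median of -1.01 against -0.13 over all genes. All tumor samples lay below all spleen samples for 34 members, against 33.5% of all genes, and above them for 6, against 29.6%. Oas2 was at 90.8, 122 and 81.6 CPM in spleen OX40plus and, as given above, under 10 CPM in tumor OX40plus (-4.70 ± 0.56, adjusted p = 1.72e-06; -3.93 with mouse 2 of tumor OX40plus left out). Ifi213 was at 276, 332 and 233 CPM in spleen OX40plus (-2.98 ± 0.12, adjusted p = 7.58e-12) and Slfn5 at 150.1, 161 and 127 CPM there, against 22.1, 22.2, 28.3 and 18.8 CPM in tumor OX40plus (-2.68 ± 0.16, adjusted p = 4.96e-10). Scaling by total counts moved the median of all genes in this comparison by -0.101 on the log2 scale, and 36 members still fell. Markers of other cells moved too: B cell genes fell 5 of 5 (median -8.88) and natural killer cell genes 8 of 8 (median -3.08) in tumor OX40plus, macrophage or monocyte genes fell 6 of 10 and 1 rose, and melanocyte or melanoma genes rose 5 of 6. Their part in these differences was not tested.

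Among OX40minus Tregs the tissues differed in both directions, over the members as over all genes. Of the 49 members 21 fell and 11 rose in tumor, where 59% of all genes passed, 29.3% lower and 29.7% higher, and the median was -0.22 against -0.03 over all genes. The tumor samples lay wholly below the spleen samples for 19 members, against 32.1% of all genes, and wholly above for 9, against 31.3%. All 6 OAS genes fell, as did Irf7 (670.2, 647 and 471 CPM in spleen against 342, 293, 358 and 350.1 CPM in tumor; -0.81 ± 0.11, adjusted p = 1.05e-05). Slfn5 was at 192, 221 and 219 CPM in spleen OX40minus and 57.4, 39.5, 59.4 and 59.7 CPM in tumor OX40minus (-1.98 ± 0.16, adjusted p = 2.39e-08). Between these groups the macrophage sum went from 796 to 1002 CPM in spleen to 241 to 364 CPM in tumor, and B cell genes were likewise lower in tumor, to 3.24 to 6.29 CPM; their part was not tested. Usp18 (-0.12, adjusted p = 0.446), Ifit3 (-0.15, adjusted p = 0.491) and Ifi206 (0.02, adjusted p = 0.905) did not pass.

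The members that rose in tumor OX40minus Tregs were 22.4% of the 49, a smaller share than the 29.7% of all genes that rose. These 11 were Ifit1, Zbp1, Isg20, Parp9, Rtp4, Cmpk2, Ifi27, Ifi27l2a, Ifi35, Ly6e and Phf11b. Ifit1 was at 115, 105 and 84.6 CPM in spleen OX40minus and, as given above, at 164 to 249 CPM in tumor OX40minus (1.06 ± 0.18, adjusted p = 9.18e-05). In OX40plus Tregs Ifit1 was at 78.2, 81.1 and 79 CPM in spleen and 54 to 91.8 CPM in tumor, and did not pass (-0.13 ± 0.18, adjusted p = 0.536). Zbp1 was at 435, 426 and 306 CPM in spleen OX40minus, 553 to 616 in tumor OX40minus (0.62 ± 0.12, adjusted p = 0.000242), with no call between tissues in OX40plus (0.13 ± 0.12, adjusted p = 0.351). The difference between the gates, which is the interaction, passed for Ifit1 (-1.19 ± 0.25, adjusted p = 0.00726) and not for Zbp1 (-0.49 ± 0.16, adjusted p = 0.0666). Isg20, Ifi35, Ly6e and Phf11b rose in both gates, but Ifi35 lost its call in OX40plus under 13 of 21 alternatives (highest adjusted p = 0.193). Isg20 was at 126, 112 and 81.9 CPM in spleen OX40minus and 124, 131 and 133 CPM in spleen OX40plus, and tumor exceeded spleen by 1.34 ± 0.12 in OX40minus (adjusted p = 7.49e-08) and by 1.30 ± 0.12 in OX40plus (adjusted p = 7.12e-08). Ly6e, a membrane-anchored protein that restricts virus entry, was at 2108 to 2641 and 1961 to 2574 CPM in the spleen groups and at 3413 to 3689.9 and 2727 to 2917 CPM in tumor OX40minus and OX40plus.

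**Figure D5:**
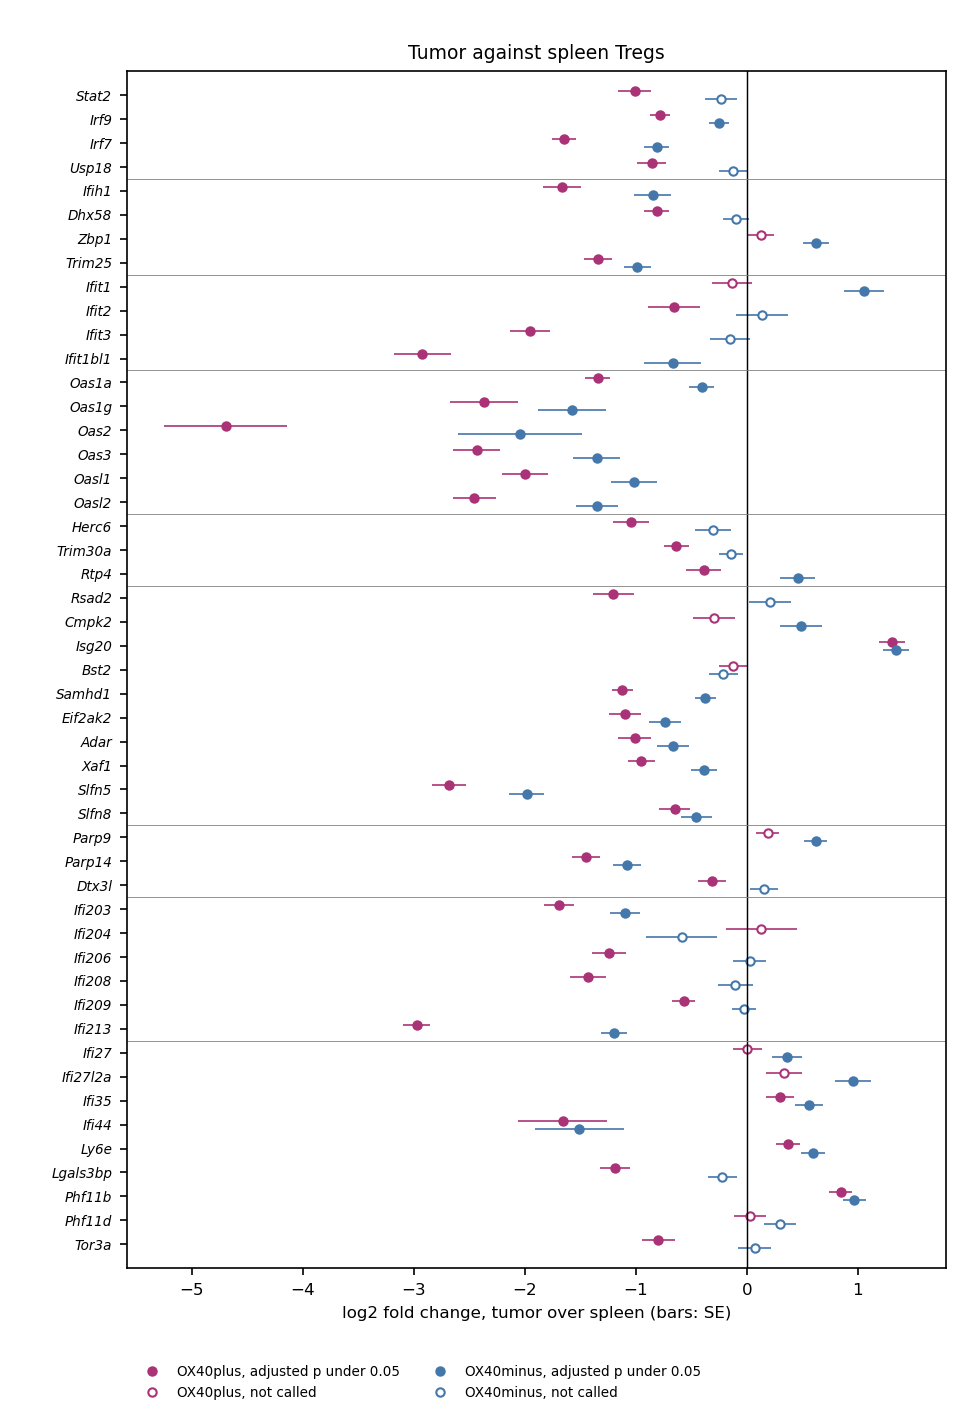
Log2 fold change of tumor over spleen Tregs for each member, in the OX40plus and the OX40minus gate, with bars of 1 SE; filled points have an adjusted p under 0.05. In OX40plus Tregs 36 members fell and 4 rose; in OX40minus Tregs 21 fell and 11 rose, with Ifit1, Isg20 and Phf11b furthest right.

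Genes of the receptor and its kinases act upstream of the members. Ifnar2 was at 101, 106, 113 and 103 CPM in tumor OX40minus and 72.5, 73.8, 77.2 and 80.4 CPM in tumor OX40plus (-0.47 ± 0.07, adjusted p = 9.89e-05). Its samples did not overlap between the groups. Jak1 fell (-0.50, adjusted p = 0.00082), and Tyk2 did not pass (-0.08, adjusted p = 0.59). Of these, Ifnar2 passed in the interaction (-0.41, adjusted p = 0.0251); Ifnar1 and Ifngr2 are not analysed here.

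Of 12 genes that induce interferon 5 fell in tumor OX40plus, where 19.9% of all genes fell. Tlr7, the endosomal receptor for single-stranded RNA, was at 11.5, 7.96, 12.3 and 12.6 CPM against 3.43, 0.997, 1.95 and 3.22 CPM (-2.34 ± 0.31, adjusted p = 2.76e-05). Unc93b1, which carries such receptors to endosomes, was at 95.7, 83, 99.5 and 93.8 against 37.1, 18.7, 33.2 and 19.9 CPM (-1.83 ± 0.20, adjusted p = 4.1e-06). Ikbke changed by -0.63, and Irf3, the factor that starts interferon transcription, did not pass (-0.17, adjusted p = 0.183). As given above, macrophage or monocyte genes fell in the same comparison, and their part in the differences of these genes was not tested. Of 10 repressors 5 fell and 1, Ptpn2, rose (0.47, adjusted p = 0.00214). Socs3 was at 594, 422, 409 and 496 against 224, 159.9, 142 and 145 CPM (-1.53 ± 0.14, adjusted p = 9.42e-07) and Socs1, which inhibits JAK kinases, changed by -0.64. Irf8 was the interferon regulatory factor that rose (0.55, adjusted p = 0.000586), while Irf1 fell (-0.48, adjusted p = 0.000948).

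Of the interferon genes looked for, Ifng alone was in the table. It was at 18.4, 26.5, 32.7 and 20.6 CPM in tumor OX40minus and 16.2, 12.4, 16.6 and 21.8 CPM in tumor OX40plus, with overlapping groups (-0.54 ± 0.26, adjusted p = 0.11). In spleen it was at 3.27, 1.89 and 3.13 CPM in OX40minus and 6.17, 4.25 and 7.18 CPM in OX40plus and rose (1.09 ± 0.30, adjusted p = 0.0321). Ifngr1, its receptor, was at 2251 to 2552 CPM in tumor OX40minus, 1275 to 1474 in tumor OX40plus and 363 to 386 and 316 to 397 in the spleen groups.

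Further genes induced by interferon were counted too. Over all genes 19.9% fell and 18.5% rose in tumor OX40plus, and 3.55% fell and 4.34% rose in spleen OX40plus. Of 40 type I targets 31 fell and 1, Slfn3, rose in tumor OX40plus, with a median of -0.83, and 8 fell and 1, Slfn9, rose in spleen OX40plus. Ms4a6b was at 658, 616, 718 and 669.7 CPM against 188, 194, 173 and 219 CPM in tumors (-1.79 ± 0.08, adjusted p = 1.51e-09), Trim12a changed by -1.61, and Cd274, which encodes the checkpoint ligand PD-L1, by -1.32. Of 16 GTPase genes that respond mainly to interferon gamma 13 fell, and the median of the 16 was -0.85. Gbp2b had the lowest estimate of the 16 (95.6, 47.3, 66.4 and 77 against 3.05, 4.88, 4.94 and 2.71 CPM, -4.20 ± 0.25, adjusted p = 1.36e-08). Gbp2 is in both lists.

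Between tissues more of the GTPase genes rose than fell in tumor. In OX40plus Tregs 8 of 16 GTPase genes rose and 4 fell in tumor, where 4 of the 49 members rose and 36 fell. Over all genes 30.2% rose and 34.3% fell there. In OX40minus Tregs 9 of 16 rose and 1 fell, where 11 of the 49 members rose and 21 fell, against 29.7% and 29.3% of all genes. Igtp was at 655, 606 and 441 and 384, 379.7 and 366 CPM in spleen OX40minus and OX40plus, and at 1504, 1408, 1722 and 1509 and 1175, 1086, 1106 and 1021 CPM in the tumor groups (1.45 ± 0.12 in OX40minus, adjusted p = 2.68e-08; 1.54 ± 0.12 in OX40plus, adjusted p = 9.31e-09). In spleen 7 of the 16 fell in OX40plus, against 3 of the 49 members and 3.55% of all genes. In the interaction 4 of 16 were lower, against 25 of the 49 members and 6.33% of all genes. The difference between the lists was not tested.

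Markers of other cells were summed in the same way. Natural killer cell genes (8 tested, 5 fell in tumor OX40plus) summed to 6.24 to 17.1 CPM in tumor OX40minus and 2.25 to 11.7 in tumor OX40plus, where Eomes was at 0 in every sample. Neutrophil genes (7 tested, 3 fell) summed to 191 to 267 against 20.7 to 46.7 CPM, of which Mmp9 alone made 185 to 259 and 16.3 to 42.1 CPM. Dendritic cell genes (8 tested, 5 fell) summed to 294 to 369 against 164 to 240.1 CPM. Plasmacytoid dendritic cell genes, those of a cell type known for making type I interferon, split, 4 lower and 2 higher of 9. B cell genes summed to 3.24 to 6.29 CPM in tumor OX40minus and 2.43 to 4.73 in tumor OX40plus, against 393 to 584 CPM in the spleen groups. Melanocyte or melanoma genes summed to 92.5 to 138 and 69.3 to 184 CPM in the tumor groups, which overlapped. T cell and Treg identity genes summed to 9671 to 10356 CPM in tumor OX40minus, 10807 to 11682 in tumor OX40plus and 4123 to 5646 in the spleen groups. Ribosomal protein genes took 1.52% to 1.64% of counts in tumor OX40minus, 1.99% to 2.93% in tumor OX40plus and 5.11% to 7.53% in spleens. The part of these levels in the members' differences was not tested.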

How the data were processed

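RNA of sorted mouse Tregs was sequenced as 28 libraries, 2 of each mouse and gate. Per the submitters' processing notes, reads were handled with bcl2fastq 2.19, kallisto and limma on mm10; the sources used here do not give their order, the index or any filter. The authors deposited 1 table of log2 values per gene. These fitted log2 CPM with 0.5 counts added, and per-library counts were rebuilt from them (43.3% to 49.0% of the nonzero values of a library came out whole within 0.01, against 0.926% to 1.34% with the library size raised by 10%). The size of a library was taken from its lowest value, read as no counts with 0.5 added, and scaling by total counts was an alternative. The report gives the depth per sample, and floors cover counting error only.

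The 2 libraries of a mouse and gate differed by about sampling noise (median chi-square over genes with at least 20 counts 0.495 to 0.578, against 0.455 from sampling and 1.43 to 12.8 between mice) and were averaged. The p-values therefore measure the spread between mice. A gene was tested when 3 or more samples reached 0.382 CPM and its counts summed to 15 or more, on the log2(CPM) scale with 0.5 counts as pseudocount, which understates changes of low genes, with limma 3.58.1 (R 4.3.3), 1 fit over the 4 groups and Benjamini-Hochberg adjustment over all genes tested. The comparisons are OX40plus over OX40minus in each tissue, tumor over spleen in each gate, and the tumor minus the spleen OX40 difference. They share samples and are not independent of each other.

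The labels number the mice, and the same number within a tissue is taken as the same animal; whether a number shared by a spleen and a tumor is 1 animal is not stated in the labels. Deviations of same-numbered samples from their group means correlated at 0.0596, -0.106, 0.0383 and -0.0198 in tumors and at -0.0585, 0.122 and -0.154 in spleens. The fit with the mouse as a block is given beside each OX40 result whose call it changes.

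The members and the other lists were chosen with earlier results of these data known. Any member may be named, and of each other list up to 4 genes per comparison with the smallest adjusted p among those that passed, besides interferon receptors, ligands, Irf1, Irf3, Tnfrsf4 and Foxp3. Some genes of these lists are not reported here. Single genes that make up a small count are also named, after their values were seen. Promoters are from RefSeq (GRCm38.p6), 12 members had none, and shared 31-base stretches were counted in GENCODE vM21 transcripts. Alternatives were other scalings, limma-voom on the rebuilt counts, only the groups compared, the block, no filter, another pseudocount and leaving out each sample.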

Additional observations from a re-analysis of the deposited data

Results flagged for a closer look

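The OX40 difference was smaller in spleens than in tumors for 25 members by the interaction in limma, each with an adjusted p under 0.05. The lowest values, tumor difference minus spleen difference on the log2 scale, were those of Oas2 at -2.65, Ifit1bl1 at -2.26, Ifit3 at -1.80, Ifi213 at -1.78 and Rsad2 at -1.41. Oas2 was at -1.89 without mouse 2 of tumor OX40plus, above Ifit1bl1, and its call was lost under 10 of 20 alternatives. Ifi208 (-1.33), Ifi206 (-1.27), Ifit1 (-1.19), Oasl2 (-1.11) and Oas3 (-1.08) followed. Between -1 and -0.80 were Oasl1 (-0.98), Lgals3bp (-0.97), Oas1a (-0.94), Tor3a (-0.87), Rtp4 (-0.85), Irf7 (-0.84) and Ifih1 (-0.81). The smallest were Stat2 (-0.78), Samhd1 (-0.75), Usp18 (-0.74), Herc6 (-0.74), Dhx58 (-0.71), Xaf1 (-0.57), Ifi209 (-0.54) and Irf9 (-0.53).

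In 6 of 98 tumor groups of 4 samples, 1 sample stood far from the other 3, with a gap to its neighbour that took a share of the group's log2 range above Dixon's critical value; chance flags about 1 in 20 groups, here 4.9. Among tumor OX40plus samples, Ifit2 was at 76.1 CPM in mouse 1 and at 30.1 to 34.5 CPM in the others (gap share 0.855), Dhx58 at 69.4 CPM in mouse 2 against 56.6 to 58.2 (0.862), and Ifi27l2a at 1423 CPM in mouse 4 against 1042 to 1077 (0.894). Among tumor OX40minus samples, Slfn5 was at 39.5 CPM in mouse 2 against 57.4 to 59.7 (0.904), Herc6 at 56.7 CPM in mouse 2 against 79.3 to 82.5 (0.894), and Ifi44 at 2.56 CPM in mouse 1 against 8.57 to 10.0 (0.884). Without mouse 1 of tumor OX40plus the interaction of Ifit2 passed (adjusted p = 0.0007), and without mouse 1 of tumor OX40minus the tumor difference of Ifi44 passed. Ifi27l2a passed in tumors without mouse 4 of tumor OX40plus.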

How the results depend on the processing

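No call on a member changed direction under the 21 alternatives (20 for the interaction, for which a fit of only the groups compared was not run). Calls held under every alternative for 39 of 43 members in tumors (exceptions Adar, Ifi27, Ly6e and Phf11b), 3 of 4 in spleens (Irf7), 36 of 40 between tissues in OX40plus (Ifit2, Rtp4, Dtx3l and Ifi35), 26 of 32 in OX40minus (Irf9, Ifit1bl1, Rtp4, Cmpk2, Xaf1 and Ifi27) and 14 of 25 in the interaction (Stat2, Irf9, Usp18, Ifih1, Oas2, Oas3, Oasl1, Herc6, Rtp4, Xaf1 and Ifi209). The number of members higher in tumor OX40plus, 1, became 2 with relative log expression scaling and 0 with total counts, with the replicate block or with no filter. The number lower in spleen OX40plus, 3, became 6 with limma-voom and 7 with only the groups compared. Over all genes that number, 446, became 510 and 878 under the same settings, and the cause was not tested. Leaving out each sample in turn gave 0 to 1 higher and 40 to 43 lower in tumors, 1 to 2 higher and 2 to 6 lower in spleens (6 without mouse 3 of spleen OX40minus, 5 without mouse 4 of tumor OX40plus), 3 to 5 higher and 33 to 36 lower between tissues in OX40plus, 8 to 11 higher and 18 to 23 lower in OX40minus, and 0 higher and 15 to 29 lower in the interaction. Over all genes the number lower in spleens was 446 in the main fit, 339 without mouse 3 of spleen OX40minus and 544 without mouse 4 of tumor OX40plus. In the interaction 794 of all genes were lower in the main fit. That number was 590 without mouse 3 of spleen OX40minus (15 members) and 725 without mouse 3 of spleen OX40plus (29 members). Total counts scaling gave 31 members and 998 of all genes lower in the interaction. With the mouse as replicate block 40 members were lower in tumors and 24 in the interaction. The block changed no OX40 call other than those given beside the results. Between tissues, where the numbers may not mark the same animal, the calls of Cmpk2 (adjusted p = 0.0743) and Irf9 (0.0535) in OX40minus and of Dtx3l (0.0784) and Ifi35 (0.074) in OX40plus did not pass with the number as a block. Of members that did not pass, the estimate changed sign under some alternative for 1 in tumors, 6 in spleens, 4 and 3 between tissues and 3 in the interaction. The 3 spleen mice per gate and the low counts of Oas1g, Ifi44 and Ifi204 limit the precision.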
